A study of Mus musculus with 6 samples.

Results

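The genes described here are 10 subunits of the neuronal nicotinic acetylcholine receptors, Chrna2, Chrna3, Chrna4, Chrna5, Chrna6, Chrna7, Chrna9, Chrnb2, Chrnb3 and Chrnb4, out of 19938 genes that the array measured with a probe set naming 1 gene. They were taken by family name, and the 1 probe set that stands for each was chosen by its highest mean log2 value over the 6 arrays. The family was itself selected on its log2 differences between knockdown and control, which were known beforehand, above all that of Chrna3, so its differences between groups are given as a description. The fold changes, intervals and calls of its members come from a fit across all genes, and none of them is a test of the family or of a member. The measurements came from 3 arrays of Pax6 knockdown cells and 3 arrays of control cells. Both groups were mouse neuro 2A (N2A) cells, an established neuroblastoma line. Knockdown cells were transiently transfected with a vector that expresses a short hairpin RNA targeting Pax6, a transcription factor gene of brain and eye development, and control cells with a non-targeting vector of the same kind. Each culture received 1.5 µg of vector, total RNA was taken 3 days later, and 200 ng of it was labelled for a whole-transcript mouse gene array. The study's oligonucleotide list holds a hairpin of only one design against Pax6, expressed from a U6 promoter, and the share of cells that took up the vector is not given in the sources used here.

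Nicotinic receptors are ligand-gated cation channels, pentamers of subunits around a central pore, and they open when acetylcholine or nicotine binds. Alpha subunits contribute the main face of the binding site, most beta subunits the complementary face, and Chrna5 and Chrnb3 encode accessory subunits that join receptors formed by others. In autonomic ganglia, the tissue to which sympathetic neuroblastoma is related, the alpha3 and beta4 subunits form the main synaptic receptor. Their genes lie side by side with Chrna5 in 1 compact cluster, on mouse chromosome 9.

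Of the 10 members, 7 had a promoter in the set of promoter sequences of build GRCm38.p6 used here, with 8 start sites. Chrna2, Chrna6 and Chrnb3 had no entry in that set. The 250 bases before each start site of the 3 clustered genes are shown because these genes share a locus. Capitals mark GC boxes, the letters GGGCGG on either strand, which are the sites of SP family factors. All are written 5′ to 3′ in the direction of the gene. The start sites are those of that set, and not all are the outermost start of the annotated gene. The Chrna3 window ends where the annotated gene begins. The Chrnb4 window and that of the second Chrna5 start lie inside the annotated genes, and that of the first Chrna5 start partly overlaps its gene. Counts in these windows thus bear on the listed start sites and not on the bases before the annotated genes.
Chrna3, GRCm38.p6 chr9:55026563-55026812, minus strand: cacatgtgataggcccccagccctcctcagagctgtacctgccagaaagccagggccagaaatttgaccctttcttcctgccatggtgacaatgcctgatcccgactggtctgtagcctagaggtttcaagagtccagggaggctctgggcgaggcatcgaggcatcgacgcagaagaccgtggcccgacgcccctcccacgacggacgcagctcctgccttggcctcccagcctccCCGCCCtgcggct
Chrnb4, GRCm38.p6 chr9:55048545-55048794, minus strand: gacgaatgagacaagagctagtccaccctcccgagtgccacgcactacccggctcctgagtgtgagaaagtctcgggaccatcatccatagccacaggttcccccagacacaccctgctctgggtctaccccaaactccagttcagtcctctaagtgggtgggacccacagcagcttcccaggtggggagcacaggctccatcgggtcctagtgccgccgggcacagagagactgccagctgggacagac
Chrna5, first start, GRCm38.p6 chr9:54980630-54980879, plus strand: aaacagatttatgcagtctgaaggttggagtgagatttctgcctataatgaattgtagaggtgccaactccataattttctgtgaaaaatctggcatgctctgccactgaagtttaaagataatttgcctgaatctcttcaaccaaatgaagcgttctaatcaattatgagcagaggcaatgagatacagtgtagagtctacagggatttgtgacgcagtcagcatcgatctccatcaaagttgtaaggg
Chrna5, second start, GRCm38.p6 chr9:54981238-54981487, plus strand: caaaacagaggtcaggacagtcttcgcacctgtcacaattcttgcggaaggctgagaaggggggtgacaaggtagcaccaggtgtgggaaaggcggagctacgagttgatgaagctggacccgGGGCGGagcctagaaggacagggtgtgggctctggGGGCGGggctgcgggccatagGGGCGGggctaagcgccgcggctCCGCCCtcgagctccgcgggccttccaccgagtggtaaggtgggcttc

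The window of Chrna3 held 1 GC box, 7 bases before the start site, and that of Chrnb4 held 0. The first start of Chrna5 had 0 and the second had 4. GC content was 63.2% in the Chrna3 window, 61.2% in that of Chrnb4, and 40.0% and 65.2% in those of the 2 Chrna5 starts. The median was 52.4% over 32851 promoter windows of the same length. At least 1 GC box stood in 32.7% of those windows and in 4 of the 8 member windows, the other member windows with one being those of Chrna4 and Chrna7. E boxes, the letters CANNTG, stood in 7 of the 8 member windows and in 66.2% of all windows, and no match overlapped a GC box. A palindromic site of paired-class homeodomains was in 0 of 8 member windows and 0.463% of all, and TTCACGC, a core of the PAX6 paired domain motif, in 0 of 8 and 1.03%. These are matches of letters in short windows, on either strand, and not measured binding.

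The targeted gene was lower in the knockdown arrays, as the labels require. Pax6 had log2 values of 8.48, 8.30 and 8.50 in knockdown arrays, against 8.79, 8.82 and 8.81 in control arrays. Its difference was -0.38 on the log2 scale (SE 0.071, limma adjusted p = 0.0382), which did not pass when control replicate 1 (-0.39), 2 (-0.37) or 3 (-0.38) or knockdown replicate 3 (-0.42) was left out, with both arrays of replicate 1 (-0.42), 2 (-0.31) or 3 (-0.42) left out, or with the variance filter. Over all genes, 762 of the 11424 tested passed a false discovery rate (FDR) of 10%, 319 higher and 443 lower. The deposited values are log2 summaries after robust multi-array averaging (RMA). The labelled cell type was borne out by 9 of 10 sympathetic neuroblastoma markers, which lay above the array medians on all 6 arrays. The exception was Ddc, which did so on 5. The mean level of the 10 markers was 10.4 to 10.55 in knockdown arrays and 10.62 to 10.69 in control arrays. The markers did not move together. Dbh (-1.08) and Isl1 (-0.35) were called lower and 0 higher. Hand2, Gata3, Th and Ddc had smaller negative log2 fold changes. Phox2a (0.049), Stmn2 (0.027), Tubb3 (0.12) and Elavl4 (0.19) had positive ones, the last 2 with all knockdown arrays above all control arrays. Of 5 fibroblast markers 3 lay above the medians on all arrays, with list means of 7.74 to 7.91 in knockdown arrays and 7.82 to 7.98 in control arrays. None of 3 glial or 4 immune markers did so on any array. The part of these shifts in the subunit differences was not tested. In bulk cultures, fewer cells that express a subunit and less RNA per cell cannot be told apart.

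Chrna3, Chrna7, Chrnb2, Chrnb4 and Chrna5 had lower values on all Pax6 knockdown arrays than on any control array, by log2 differences of -0.63, -0.37, -0.23, -0.30 and -0.20. The other 5 members overlapped between groups. Of the 10 members 4 entered the fit of expressed genes, and 6 were too low for it. A gene entered that fit where 3 or more of the 6 arrays gave it a value over that array's own median, and these medians lay between 7.49 and 7.59. Chrna3, Chrna7 and Chrnb2 did so on all 6 arrays, Chrnb4 on 4, namely the 3 control arrays and knockdown replicate 2, and the remaining 6 members on 0. Chrnb4 thus entered mainly through the group where it was higher. The fit called 3 members lower (Chrna3, Chrna7 and Chrnb2) at 10% FDR and 0 higher. Over all genes in the fit 6.67% were called in either direction and 3.88% as lower. Since the contrast was known when the family was chosen, nothing is read from these calls. Those of Chrna7 and Chrnb2 were lost without any 1 of the 3 control arrays, without knockdown replicate 3, or without both arrays of any replicate number. They were also lost with no low-value filter and with the variance filter. That of Chrnb2 was lost too with the 25th percentile filter and with arrays centred on their median. Chrna7 was not tested with the 75th percentile filter. The call of Chrna3 was lost only without both arrays of replicate 3. Knockdown arrays wholly below control arrays, as in 5 members, were found in 7.91% of all 19938 genes. Without the filter on low values, the median difference was -0.11 over the 10 members and 0.012 over all genes.

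**Figure D1:**
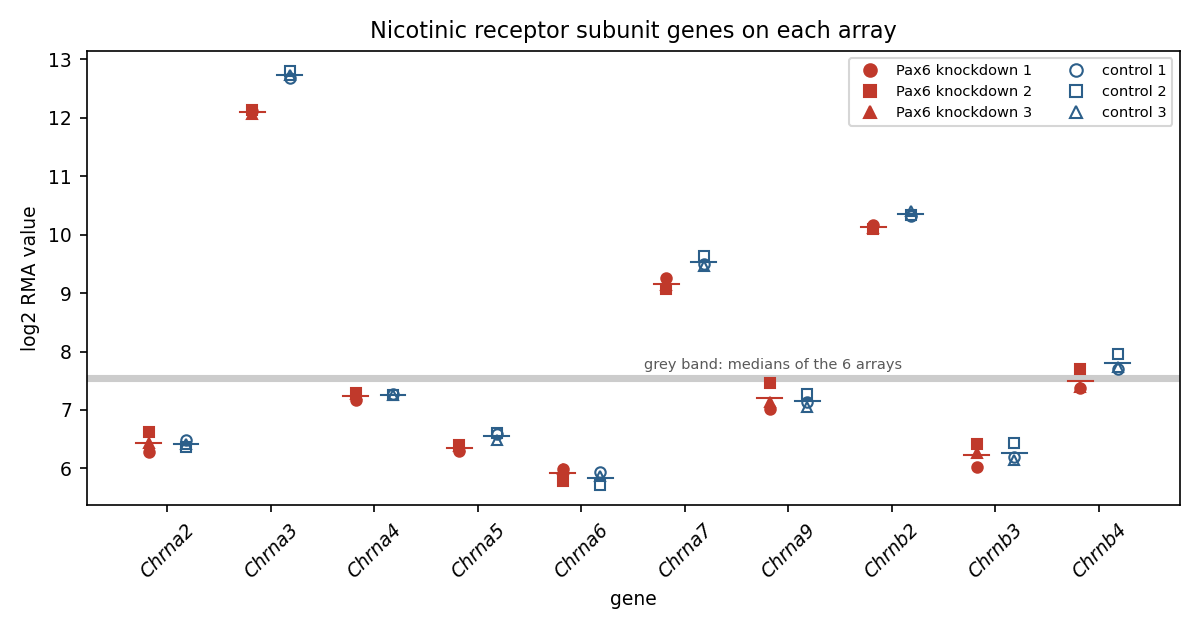
Log2 RMA value (vertical axis) of the 10 subunit genes (horizontal axis) on each Pax6 knockdown array (filled red) and control array (open blue), with marker shapes for replicate numbers and lines for group means. The values of 6 genes lie below the grey band of array medians (7.49 to 7.59) on all arrays, and the Chrna3 arrays separate by group, near 12.1 in knockdown and 12.7 in control cells; heights of different genes are not comparable, since probe sets differ in affinity.

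Chrna3 encodes the ligand-binding alpha subunit of the ganglionic receptor. Its log2 values were 12.12, 12.13 and 12.06 in knockdown arrays, against 12.68, 12.79 and 12.73 in control arrays. The groups were separated by a gap several times the range within either, with means of 12.10 ± 0.040 in knockdown and 12.74 ± 0.057 in control arrays (SD, n = 3 each). This is a log2 fold change of -0.63, with a 95% confidence interval of -0.77 to -0.49 (SE 0.061), and a signal lower by 35.5%. By size of fold change it was the 39th largest fall among the 11424 tested genes. The difference lay between -0.66 and -0.60 as each array was left out in turn.

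Chrnb4 encodes the beta subunit that pairs with alpha3 in ganglia. Its log2 values were 7.38, 7.70 and 7.40 in knockdown arrays, against 7.71, 7.95 and 7.73 in control arrays. The 2 groups did not overlap, but knockdown replicate 2 lay only just below control replicate 1, and replicate 2 was the highest array of both groups. The means were 7.49 ± 0.18 in knockdown and 7.80 ± 0.13 in control arrays (SD, n = 3 each), and the log2 fold change was -0.30, with a 95% confidence interval of -0.55 to -0.057 (SE 0.11). It was -0.40 without knockdown replicate 2 and -0.22 without control replicate 2. These values straddled the array medians, where RMA compresses differences.

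Chrna5, the accessory subunit gene of the cluster, had log2 values of 6.29, 6.39 and 6.38 in knockdown arrays, against 6.59, 6.60 and 6.48 in control arrays. All of them were below the array medians, so the gene was outside the main comparison. In the fit without the filter its log2 fold change was -0.20, with a 95% confidence interval of -0.36 to -0.042 (SE 0.069). Chrna5 and Chrna3 are transcribed towards each other and their annotated ends overlap. The labelled target was sense DNA, which keeps the strand, and whether either probe set covers the shared stretch is not given in the sources used here.

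**Figure D2:**
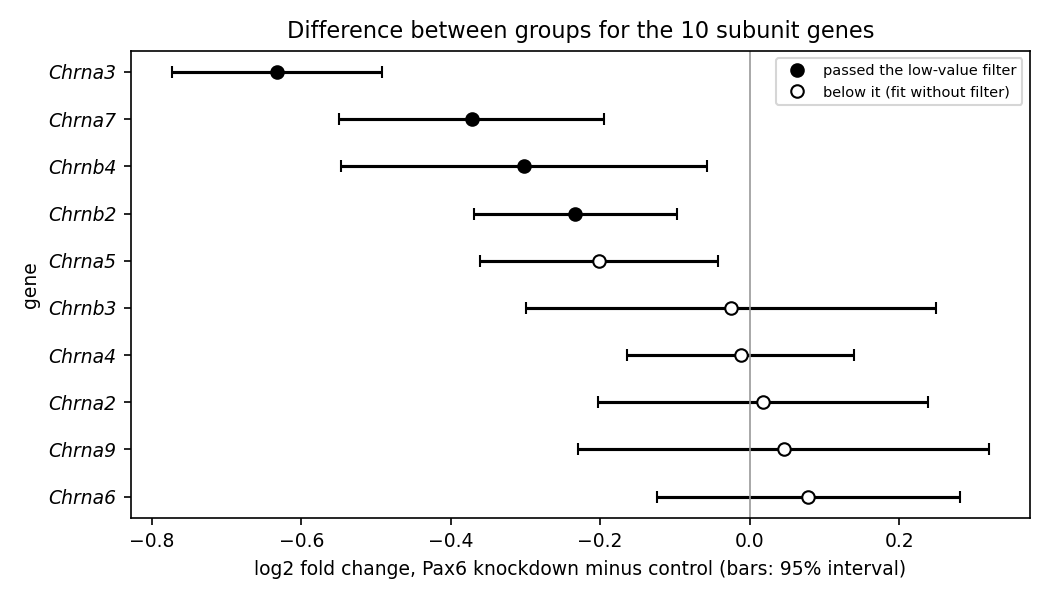
Log2 fold change, Pax6 knockdown minus control (horizontal axis), with 95% confidence intervals for the 10 subunit genes (vertical axis), filled where the gene passed the low-value filter and open where the value comes from the fit without it. Chrna3 (-0.63) lies farthest from 0, and the intervals of Chrna7, Chrnb4, Chrnb2 and Chrna5 are also wholly below 0.

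Chrna7 encodes the subunit that can form receptors on its own and is highly permeable to calcium. Its log2 values were 9.26, 9.06 and 9.15 in knockdown arrays, against 9.49, 9.63 and 9.47 in control arrays. All 3 knockdown arrays were below all control arrays, with a gap about as wide as the range within the knockdown group. The means were 9.16 ± 0.10 in knockdown and 9.53 ± 0.088 in control arrays (SD, n = 3 each). The log2 fold change of -0.37 had a 95% confidence interval of -0.55 to -0.19 (SE 0.077) and stands for a signal lower by 22.7%. It lay between -0.43 and -0.32 as each array was left out in turn, and was -0.44, -0.27 and -0.40 without both arrays of replicate 1, 2 and 3.

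Chrnb2 encodes the beta subunit of the most common high-affinity nicotinic receptors of brain, where it assembles with alpha4. Its log2 values were 10.17, 10.09 and 10.11 in knockdown arrays, against 10.32, 10.34 and 10.41 in control arrays. The spread within each group was small, with means of 10.12 ± 0.041 in knockdown and 10.36 ± 0.044 in control arrays (SD, n = 3 each). The log2 fold change of -0.23 had a 95% confidence interval of -0.37 to -0.097 (SE 0.059) and stands for a signal lower by 14.9%. It lay between -0.26 and -0.21 as each array was left out in turn.

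The other 5 members gave no separation of the groups. Chrna4, the alpha partner of Chrnb2 in brain receptors, had log2 values of 7.17, 7.30 and 7.27 in knockdown arrays, against 7.27, 7.25 and 7.26 in control arrays, a log2 fold change of -0.012 (SE 0.066). Its control arrays lay close together and inside the range of the knockdown arrays. Chrna9, the subunit of cochlear hair cell receptors, had 7.01, 7.46 and 7.13 in knockdown arrays, against 7.14, 7.27 and 7.06 in control arrays, with a log2 fold change of 0.046 (SE 0.12). Replicate 2 was the highest array of both groups.

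Chrna6 and Chrnb3 are neighbours elsewhere in the genome, and their subunits are found together in receptors of midbrain dopamine neurons. Chrna6 had log2 values of 5.99, 5.79 and 5.98 in knockdown arrays, against 5.94, 5.72 and 5.86 in control arrays (log2 fold change 0.079, SE 0.088). Chrnb3 had 6.02, 6.42 and 6.27 in knockdown arrays, against 6.20, 6.43 and 6.15 in control arrays (log2 fold change -0.024, SE 0.12). Replicate 2 was the lowest array of both groups for Chrna6 and the highest of both for Chrnb3. Chrna2, an alpha subunit with restricted expression in brain, had 6.27, 6.62 and 6.43 in knockdown arrays, against 6.49, 6.36 and 6.42 in control arrays (log2 fold change 0.018, SE 0.096). The 95% confidence intervals of these 5 genes reached from -0.30 (Chrnb3) to 0.32 (Chrna9), so a difference of the size and sign of that of Chrna7 lay outside all 5 intervals and one the size of that of Chrnb2 lay within the interval of Chrnb3. All 5 genes lay below the array medians on all arrays, where RMA compresses differences. The intervals thus bear on array values and do not exclude such a difference in RNA amount. A value below the array median does not by itself show that a transcript was absent.

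The knockdown differences of the 5 genes with separate groups were not of 1 size. Chrna3, the gene that led to the choice of the family, had the most negative one, so its distance from the others is a description. Within each array, the log2 value of Chrna3 minus that of a second subunit gene removes whatever both share. Set to a mean of 0 in control arrays, Chrna3 minus Chrnb2 was -0.43, -0.33 and -0.43 in knockdown arrays, against -0.021, 0.072 and -0.051 in control arrays. The mean difference was -0.40 (SE 0.049, 95% interval -0.54 to -0.26 from the pooled spread of the arrays).

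Chrna3 minus Chrnb4 was -0.21, -0.50 and -0.28 in knockdown arrays, against 0.034, -0.097 and 0.063 in control arrays, a mean difference of -0.33 (SE 0.10, 95% interval -0.61 to -0.049). Chrna3 minus Chrna5 differed by -0.43 (SE 0.065, 95% interval -0.61 to -0.25) and Chrna3 minus Chrna7 by -0.26 (SE 0.073, 95% interval -0.46 to -0.059). In all 4 of these pairs the knockdown arrays lay below the control arrays. Since Chrna3 led to the choice of the family by its difference, these intervals describe the spread of the arrays and test no inequality. Chrna5 minus Chrnb4 differed by 0.10 (SE 0.11, 95% interval -0.21 to 0.41), an interval that holds 0 and differences of either sign. Chrna5 and Chrnb4 lay near or below the array medians, where differences are compressed. The part of the scale in the spread of fold changes within the cluster was not tested.

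**Figure D3:**
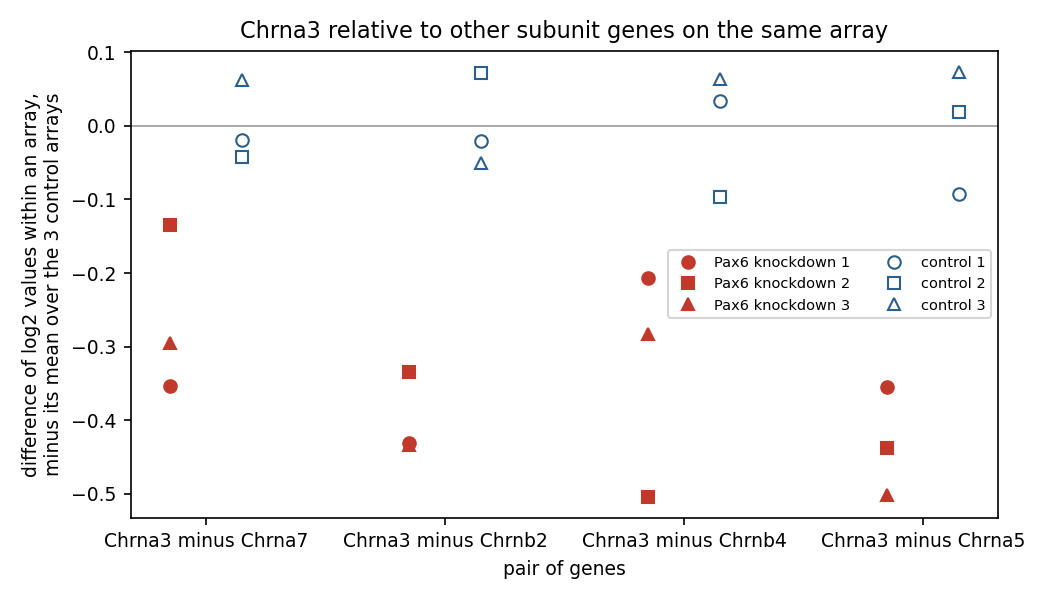
Difference between the log2 values of Chrna3 and another subunit gene on the same array, minus its mean over the 3 control arrays (vertical axis), for 4 pairs of genes (horizontal axis), with filled red markers for Pax6 knockdown arrays and open blue markers for control arrays. All knockdown arrays lie below all control arrays in each pair, from -0.13 to -0.50.

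Genes beside the cluster were examined to ask whether the locus as a whole differed. None of the genes tested on either side passed 10% FDR by limma. The 6 genes with a usable probe set nearest on each side made 12, of which 10 were tested. Of these 0 passed, 1 had an unadjusted p under 0.05, and their log2 fold changes ran from -0.049 to 0.23, with adjusted p from 0.197 to 0.843. They are ordered Wdr61, Crabp1, Ireb2, Hykk, AY074887, Psma4, then the cluster, then Ube2q2, Fbxo22, Nrg4, Tmem266, Etfa and Isl2. Psma4, a proteasome subunit gene and the nearest to Chrna5, had a log2 fold change of -0.049 (SE 0.071), and Ube2q2, the nearest to Chrnb4, had 0.087 (SE 0.080). All 3 cluster genes had negative values. They belong to a family selected on this difference, so the contrast of signs with the neighbours is a description. The median over all tested genes was 0.017, and positive values were found in 9 of the 10 tested neighbours. Tmem266, with log2 values of 7.87, 7.84 and 7.90 in knockdown arrays and 7.72, 7.76 and 7.56 in control arrays, had the lowest p of them, with a difference of 0.19 (SE 0.069, limma adjusted p = 0.197). With the replicate block, Etfa, a mitochondrial electron transfer gene, passed as higher (0.23). Over all 11424 tested genes 6.67% passed, so 0 of 10 neighbours does not decide whether the locus as a whole differed.

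**Figure D4:**
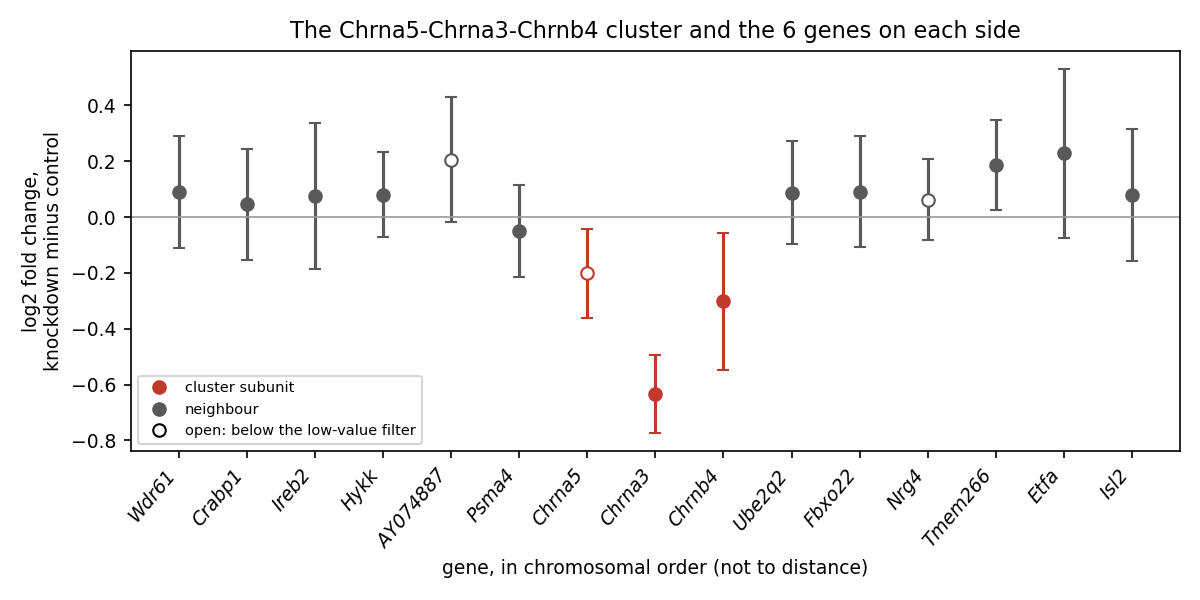
Log2 fold change, Pax6 knockdown minus control, with 95% confidence intervals (vertical axis) for the 3 cluster genes (red) and the 6 genes on each side (grey), in chromosomal order (horizontal axis); open markers are genes below the low-value filter. The cluster genes lie at -0.20, -0.63 and -0.30, and the tested neighbours between -0.049 and 0.23.

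Outside the neuronal subunits, 3 of 30 tested genes in 7 related lists fell and 0 rose, with 8 at an unadjusted p under 0.05. Over all 11424 tested genes 6.67% passed in either direction, 3.88% passed as lower, and 18.8% had an unadjusted p under 0.05, so nothing particular to the lists is read from these counts. Htr3a, which encodes a subunit of the serotonin-gated channel and belongs to the same superfamily, fell, with a fold change of greater size than that of any neuronal nicotinic subunit, a difference that was not itself tested. Its log2 values were 9.60, 9.32 and 9.42 in knockdown arrays, against 10.33, 10.25 and 9.95 in control arrays. The groups did not overlap, and control replicate 3 was the lowest of its group. The log2 fold change was -0.72 (SE 0.11, limma adjusted p = 0.0238), or a signal lower by 39.5%. It did not pass without control replicate 2 (-0.69, limma adjusted p = 0.147) or knockdown replicate 3 (-0.71, limma adjusted p = 0.124), nor with both arrays of a replicate number left out (limma adjusted p from 0.101 to 0.252). Htr3b, the second subunit of that channel, was below the filter and had a log2 fold change of -0.41 (SE 0.097).

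Ache, the acetylcholinesterase that ends the transmitter's action, was the 1 called gene among 4 tested for acetylcholine synthesis, transport and breakdown. It had log2 values of 11.002, 10.97 and 10.90 in knockdown arrays, against 11.45, 11.45 and 11.39 in control arrays, and the groups were well apart. Its log2 fold change was -0.47 (SE 0.060, limma adjusted p = 0.0135), and without control replicate 2 it was -0.46 (limma adjusted p = 0.110), and without both arrays of replicate 3 it was also -0.46 (limma adjusted p = 0.403). Prima1, which anchors the enzyme to neuronal membranes, had -0.20 (SE 0.073, limma adjusted p = 0.195), Slc18a3, the vesicular acetylcholine transporter, -0.080 and Colq, the collagen tail of the enzyme, 0.11. Chat, the enzyme that makes acetylcholine, was below the filter. With the replicate block Prima1 also passed.

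Of the 2 muscarinic receptor genes tested 0 passed, and 1 had an unadjusted p under 0.05. Chrm4 had log2 values of 9.79, 9.86 and 9.78 in knockdown arrays, against 9.99, 10.22 and 10.02 in control arrays (log2 fold change -0.26, SE 0.077, limma adjusted p = 0.113), and it passed with the replicate block. Chrm1 had -0.016 (SE 0.061). All 6 muscle-type and other nicotinic subunit genes were below the filter and none was tested.

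Receptor assembly was represented by 6 tested chaperones and prototoxins, of which 0 passed and 0 had an unadjusted p under 0.05. The 2 with the lowest p were Canx, the calnexin gene, at -0.11 (SE 0.056, limma adjusted p = 0.333), and Ric3, a chaperone of alpha7 receptors, at -0.14 (SE 0.13, limma adjusted p = 0.672). Among 8 tested scaffold and anchoring genes 0 passed and 3 had an unadjusted p under 0.05, led by Apc at -0.20 (SE 0.073, limma adjusted p = 0.194) and Agrn, the agrin gene, at -0.24 (SE 0.091, limma adjusted p = 0.197). With the replicate block Apc and Agrn passed as lower and Dlg4, a postsynaptic scaffold gene, as higher (0.23).

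Among 9 tested transcription factors described as acting on nicotinic subunit promoters, Isl1, a LIM homeodomain factor of sympathetic and sensory neurons, fell and the other 8 did not pass. Its log2 values were 10.34, 10.14 and 10.27 in knockdown arrays, against 10.67, 10.63 and 10.51 in control arrays, and the log2 fold change was -0.35 (SE 0.076, limma adjusted p = 0.0571). The adjusted p was 0.171, 0.225 and 0.127 by limma without control replicates 1, 2 and 3 and 0.186 without knockdown replicate 3, and it was 0.152, 0.190 and 0.459 without both arrays of replicate 1, 2 and 3. Nor did Isl1 pass where every gene was tested (0.134 by limma) or under the variance filter (0.194 by limma). Sp1 had 0.14 (SE 0.083), Sp3 0.030 (SE 0.068), Phox2a 0.049 (SE 0.067) and Pou4f1 -0.031 (SE 0.062).

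**Figure D5:**
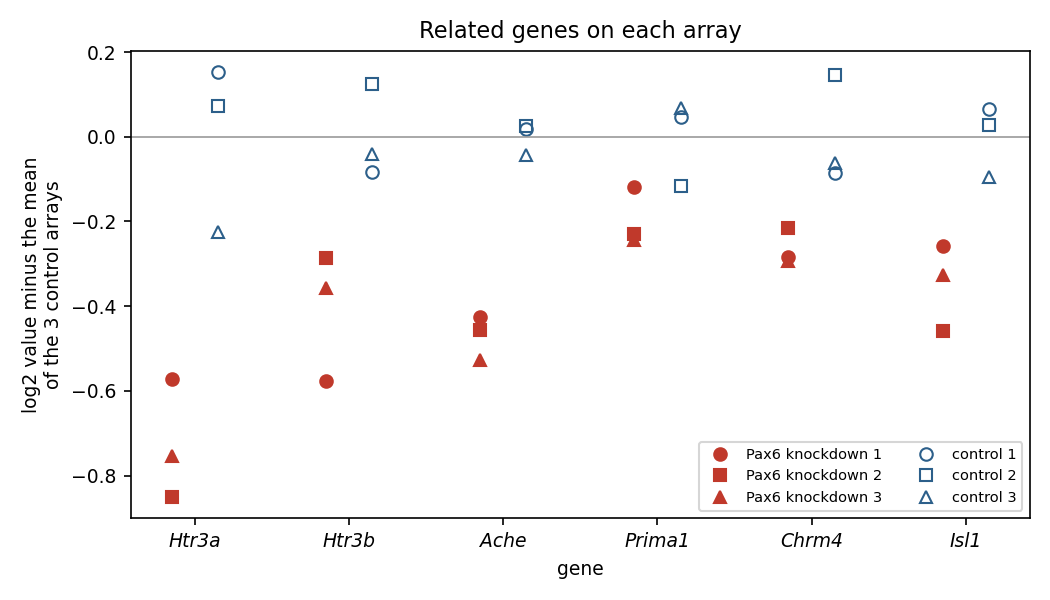
Log2 values relative to the control mean of each gene (vertical axis), 1 point per array, for Htr3a, Htr3b, Ache, Prima1, Chrm4 and Isl1 (horizontal axis), with filled red markers for Pax6 knockdown and open blue markers for control arrays. Knockdown arrays lie below control arrays in all 6 genes, by the narrowest margin for Prima1. The 6 were picked for the figure with their values known, so this separation is a description. It was found in 7.91% of all 19938 genes, and Dlg4, Nrg1 and Egr1 of the related lists had knockdown arrays wholly above control arrays.

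The genes most like Chrna3 were found by Pearson's r of log2 values over the 6 arrays, among all tested genes. They were Tmem39b, Lpar2, Bace1, Nrp1 and Slit3, with r of 0.997, 0.997, 0.995, 0.995 and 0.995. Their log2 fold changes were -0.13, -0.20, -0.61, -0.84 and -0.42. These r values rest on 6 arrays in 2 groups and follow the step between groups. After the group means were removed, the closest were Arid5a, Engase, Slco3a1, Smpd3 and Dag1, with r of 0.998, 0.996, 0.992, 0.992 and 0.988, and none of the first 5 was among them. These r values too are the highest picked from all tested genes on 6 arrays, so no link with Chrna3 is read from them.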

How the data were processed

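The arrays were 6, made from 3 Pax6 knockdown and 3 control cultures, grouped by their titles. The study's methods call them biological replicates. The authors deposited log2 summary values per probe set after RMA background correction and quantile normalization, with limma and RMA named in the submitters' processing notes, with no version given. That normalization hides a change in total RNA per cell. The number of arrays limits the precision. Of 35556 probe sets, none with a missing value, 21789 named 1 gene in the platform annotation, and 21698 matched a RefSeq table of GRCm38.p6 with 0 symbols updated. The probe set with the highest mean stood for a gene. Genes above the array median on at least 3 of 6 arrays were tested, 11424 in all, with limma 3.58.1 in R 4.3.3 (lmFit and eBayes, two-sided, Benjamini-Hochberg over all tested genes, threshold 10% FDR). Fold changes are Pax6 knockdown minus control. The members and lists were chosen with earlier results of these data known. Besides the members, Pax6 and the cluster's neighbours, named genes were list members past 10% FDR (where there were none, the 2 of lowest p at most) and the 5 most like Chrna3 by each measure. Those with blocked calls, Prima1, Slc18a3, Colq, Chat, Htr3b, Sp1, Sp3, Phox2a and Pou4f1 were named after their values were seen. The main fit was unpaired, with the group as its only term. Same-numbered arrays deviated together (r = 0.574, 0.323 and 0.23 for replicates 1, 2 and 3). The numbers were therefore taken as pairs in alternatives only, namely the replicate block and leaving out both arrays of a number. What the numbers mark is not stated, so this pairing rests on the values, and knockdown replicate 2 with control replicate 3 also reached r = 0.178. Alternatives were the replicate block, other filters, probe set means, centring, a second quantile normalization, array weights, an intensity trend, and leaving out arrays. The procedure was also run on simulated data with noise drawn independently for each gene and array. That setting leaves out the shared deviations of same-numbered arrays, so the run does not bear on them.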

Additional observations from a re-analysis of the deposited data

How the results depend on the processing

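Against 762 genes past 10% FDR by limma, the count was 2042 with the replicate block, 245 with no low-value filter, 389 with a filter at the 25th percentile, 136 with the variance filter, 1383 after a second quantile normalization and 4239 with array weights, whose estimation stopped before its tolerance was reached. It ran from 45 without control replicate 2 to 1304 without knockdown replicate 2 with 1 array left out, and was 133, 85 and 5 without both arrays of replicate 1, 2 and 3. The called subunit genes numbered 4 with the replicate block, 1 with no filter and 1 with the variance filter, and 0 to 4 as arrays were left out, with 0 only without both arrays of replicate 3. The neighbours called were 1 with the block and 2 with array weights (Etfa and Tmem266), and 0 whichever arrays were left out. In the related lists the genes called higher were 1 with the block and 4 with array weights, and 0 as arrays were left out. Those called lower were 7 with the block, 8 with array weights and 5 with the intensity trend, and 0 to 4 as arrays were left out. The replicate block changed no call of a member other than that of Chrnb4. Chrna3, Chrna5, Chrna7, Chrnb2, Chrnb4 and Pax6 stayed negative and Chrna6 positive in each alternative that gave them a value. Chrna4 was 0.0024 and Chrnb3 0.030 with array weights. Without 1 array Chrna2 ran from -0.070 to 0.10, Chrna4 from -0.037 to 0.027, Chrna9 from -0.083 to 0.14 and Chrnb3 from -0.12 to 0.084. Without both arrays of a replicate number Chrna2 ran from -0.10 to 0.14, Chrna4 from -0.042 to 0.031, Chrna9 from -0.028 to 0.13 and Chrnb3 from -0.097 to 0.052, and the cause of these changes of sign was not tested. Centring and a second quantile normalization left the median of all genes between 0.00855 and 0.0168.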
